A study of Homo sapiens with 38 samples.

Results

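Long intergenic noncoding RNAs are transcripts without an evident protein product that are encoded between protein-coding genes, and many carry only the serial symbol LINC followed by a number. They are typically spliced and polyadenylated, are present at lower levels than mRNAs, and are often found in one cell type or stage only, which has made several of them markers of pluripotent states. Known modes of action include regulation of a neighbouring gene during their own transcription, binding of chromatin or splicing proteins, and service as host transcripts for microRNAs.

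The genes described here were chosen by symbol and by level: every row whose symbol is LINC followed by digits and whose mean over the 38 libraries was at least 1 CPM (the count scaled to a common library total, without division by length). Of 1869 such symbols in the table, 1457 had at least 1 count and 138 met the threshold, among 57133 genes in all and 16233 with a mean of at least 1 CPM. Because the members were selected on their mean level, that level is a description only, and a member just above the threshold could have passed through a single stage in which it was high. Just inside lay LINC00663, LINC01719 and LINC00839, with mean levels of 1.07, 1.06 and 1.02 CPM, and just outside LINC01249, LINC01807 and LINC00654, with 0.997, 0.975 and 0.967 CPM. The label "intergenic" did not hold for each row under the GENCODE v44 annotation: of 133 members matched to 1 position, 127 were annotated as long noncoding RNA, 4 as pseudogenes and 2, LINC00514 and LINC00672, as protein-coding genes under newer names.

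All libraries came from the human embryonic stem cell line Shef6, a single line that had been adapted to grow without feeder cells on plates coated with serum, in the naive medium PXGL. Naive cells resemble the epiblast before implantation, and removal of PXGL lets them move towards later pluripotency. In the first experiment (Ex1, 30 libraries) naive cells were taken from plates coated with serum or with Geltrex, an extract of basement membrane, and cells plated on Geltrex were sampled on days 2, 3, 4, 6 and 8 in N2B27 (a basal medium with no added growth factor) or E8, and on days 4, 6 and 8 in mTeSR. E8 and mTeSR are media for conventional pluripotent cells that supply FGF and a ligand of the Activin and TGFβ pathway. In the second (Ex2, 8 libraries) naive cells on Geltrex were compared with day 4 of N2B27, of N2B27 with XAV (an inhibitor of tankyrase that lowers WNT signalling) and of N2B27 with FGF2, Activin A and XAV (FAX). Each of the 19 groups held 2 libraries. The study mostly calls them technical replicates, and biological ones in another place, so that p-values measure the spread between these libraries, which may be technical. Naive libraries of both experiments were pooled (6 libraries), as were those of N2B27 at day 4 (4 libraries), which gave 16 levels of medium and day. The sources disagree on the naive libraries of Ex2: their names carry d4, while their titles and time point labels give d0, and they were taken here as naive cells of day 0.

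The libraries held 3038046 to 5612354 counts (median 4427277), and 129 to 138 members had a count in each. At this depth 3 counts corresponded to 0.535 to 0.987 CPM, so that levels under about 1 CPM rest on a few reads. The stage labels were matched by markers: all 7 naive markers fell in N2B27 and mTeSR at day 8 (6 of 7 in E8), and 6 of 6 primed or formative markers rose in each medium. The 6 endoderm markers rose in each medium as well, and other lists moved with medium and day. At day 8 the summed level of 6 endoderm markers was 256 to 301 CPM in N2B27, 159.6 to 162 in mTeSR and 38.7 to 52.2 in E8, against 0.275 to 3.07 in naive cells. The 3 primitive streak markers summed to 230 to 295 CPM in N2B27, 148 to 192 in mTeSR and 35.1 to 38 in E8 at day 8, against 2.63 to 21.7 in naive cells. The 5 genes of the fibroblast list summed to 168 to 182, 132 to 150 and 100 to 102 CPM in N2B27, mTeSR and E8, against 1.97 to 4.28. The 5 trophectoderm or amnion markers summed to 67.3 to 79.6 CPM in N2B27 at day 8, above the 9.88 to 18.1 of naive cells, and to 12.4 to 20.3 in E8 and mTeSR. The part of such cells in the differences between days and media given here was not tested, and in bulk RNA a change in the number of cells of a type cannot be told apart from a change in RNA per cell.

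Promoter sequences from RefSeq (GRCh38.p14, the same assembly as the hg38 of the study's alignment, 250 bases before to 50 bases after the annotated start) were found for 77 of the 138 members. They are shown for 7 members whose stage or medium profile is described below, in 5′ to 3′ direction of the gene, with the motifs searched in capitals: the octamer ATTTGCAT bound by OCT4, the TATA box TATAAA, the CCAAT box CCAAT and the GC box GGGCGG bound by SP and KLF factors, each on both strands. LINC01356 (chr1:112850594-112850893 (- strand)), LINC02141 (chr16:59855103-59855402 (+ strand)) and LINC00205 (chr21:45287802-45288101 (+ strand)) were higher than in naive cells at day 8 in all 3 media, though LINC00205 was not called against Ex1 naive cells alone. LINC01108 (chr6:14285405-14285704 (- strand)) was higher at day 8 in E8 and mTeSR.
LINC01356: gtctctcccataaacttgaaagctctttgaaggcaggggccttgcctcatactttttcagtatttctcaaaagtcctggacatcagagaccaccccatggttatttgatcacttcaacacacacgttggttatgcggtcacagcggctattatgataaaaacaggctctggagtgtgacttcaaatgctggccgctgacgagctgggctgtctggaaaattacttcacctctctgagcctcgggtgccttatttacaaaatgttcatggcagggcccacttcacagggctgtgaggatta
LINC00205: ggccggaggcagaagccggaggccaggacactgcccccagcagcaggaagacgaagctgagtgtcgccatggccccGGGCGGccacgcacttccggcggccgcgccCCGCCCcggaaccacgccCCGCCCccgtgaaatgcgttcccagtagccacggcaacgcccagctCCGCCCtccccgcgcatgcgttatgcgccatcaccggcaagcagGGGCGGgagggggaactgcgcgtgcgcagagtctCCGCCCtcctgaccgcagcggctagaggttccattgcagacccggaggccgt
LINC02141: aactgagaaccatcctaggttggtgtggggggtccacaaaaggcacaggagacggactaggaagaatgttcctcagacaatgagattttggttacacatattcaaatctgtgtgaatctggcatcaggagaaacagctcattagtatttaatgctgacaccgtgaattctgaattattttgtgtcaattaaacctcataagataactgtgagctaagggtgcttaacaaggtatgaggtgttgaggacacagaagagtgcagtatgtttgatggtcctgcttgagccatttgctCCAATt
LINC01108: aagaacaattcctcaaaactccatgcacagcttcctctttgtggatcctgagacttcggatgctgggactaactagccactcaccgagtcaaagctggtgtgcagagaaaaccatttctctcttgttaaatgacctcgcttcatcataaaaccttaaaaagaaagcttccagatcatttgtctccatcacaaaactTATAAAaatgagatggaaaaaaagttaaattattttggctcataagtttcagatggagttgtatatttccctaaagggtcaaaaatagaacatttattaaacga
LINC02434 (chr4:188159803-188160102 (+ strand)), LINC01234 (chr12:113773634-113773933 (- strand)) and LINC01003 (chr7:152463874-152464173 (+ strand)) were lower, LINC02434 in E8 and mTeSR.
LINC02434: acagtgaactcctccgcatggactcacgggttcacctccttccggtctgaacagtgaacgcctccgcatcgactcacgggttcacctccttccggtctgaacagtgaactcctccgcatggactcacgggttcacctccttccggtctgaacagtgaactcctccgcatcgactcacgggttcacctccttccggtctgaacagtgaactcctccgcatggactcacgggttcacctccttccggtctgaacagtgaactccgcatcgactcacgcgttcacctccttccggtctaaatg
LINC01234: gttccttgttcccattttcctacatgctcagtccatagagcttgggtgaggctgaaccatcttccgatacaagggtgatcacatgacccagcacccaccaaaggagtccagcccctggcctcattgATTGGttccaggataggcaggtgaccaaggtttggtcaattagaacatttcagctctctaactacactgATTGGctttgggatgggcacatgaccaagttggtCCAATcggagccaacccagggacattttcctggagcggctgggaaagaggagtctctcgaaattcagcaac
LINC01003: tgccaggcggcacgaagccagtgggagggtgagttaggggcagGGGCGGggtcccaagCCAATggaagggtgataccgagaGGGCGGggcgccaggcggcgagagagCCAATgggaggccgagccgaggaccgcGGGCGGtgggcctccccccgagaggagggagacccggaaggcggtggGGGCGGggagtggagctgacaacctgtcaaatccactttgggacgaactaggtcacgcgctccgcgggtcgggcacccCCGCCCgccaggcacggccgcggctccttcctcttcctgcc
That of LINC00205, which starts 137 bases from the start of POFUT2 (an enzyme that fucosylates proteins), held several GC boxes, that of LINC01108 held a TATA box, and that of LINC01356 held none of the 4 motifs. The window of LINC02434 was a tandem repeat and held none of them either. RefSeq and GENCODE v44 disagree on the starts of LINC02434 and LINC01003. By GENCODE these genes start at 188159705 and 152463786, so that both windows lie inside the annotated gene. Their sequence and motifs are then not those of a region before the start. Over the 85 distinct promoters of the 77 members, 2.35% held the octamer, 18.8% the TATA box, 45.9% the CCAAT box and 43.5% the GC box, beside 1.76%, 11.6%, 34.6% and 44.9% of 34796 distinct promoters of all genes. None of the 15 promoters found for 14 members that were higher than naive in all 3 media at day 8 held the octamer in this window. With the octamer in 1.76% of all promoters, 15 are too few to show a lack of it.

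Members took a small and changing share of the counts. They made up 0.107% ± 0.00701 (SD, n = 6) of counts in naive cells, 0.0957% in E8 at day 2, the lowest level mean, and 0.140% in mTeSR at day 8, the highest. Their median mean level was 2.86 CPM, below the 14.9 CPM of all genes with a mean of at least 1 CPM, and the top 5 members held 37.0% of the members' counts. Levels are not divided by transcript length, because QuantSeq reads come from the 3′ end. Of the 16 levels, the naive level had the highest mean for 20 members, E8 at day 8 for 19, N2B27 at days 6 and 8 for 17 each, E8 at day 2 for 13, mTeSR at days 6 and 8 for 11 each, and each of the others for at most 8. The index tau, which is 0 for a gene at the same level throughout and 1 for a gene found in 1 level only, had a median of 0.463 and ran from 0.206 to 0.825, so that no member was confined to a single level.

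Some of the most abundant members varied little with stage. LINC01641 (chromosome 1, 227393554 to 227431035), with the highest mean and the lowest tau, lay between 95.2 and 185 CPM in naive cells, 111 and 132 CPM in N2B27 at day 8, 132 and 163 in E8 and 135 and 150 in mTeSR. The ranges overlapped through the Ex2 naive libraries (172 and 185 CPM), while those of Ex1 (95.2 to 122) lay below all E8 and mTeSR libraries of day 8. None of the 3 differences was called. Against Ex1 naive cells alone the folds of LINC01641 were 1.06 in N2B27, 1.35 in E8 and 1.30 in mTeSR (adjusted p = 0.645, 0.00951 and 0.0279). LINC01578, which is CHASERR, a repressor of the neighbouring chromatin remodeller gene CHD2, was measured at 87.1 CPM ± 9.19 (SD, n = 6) in naive cells and 111 ± 5.91 (SD, n = 2), 106 ± 1.69 and 118 ± 1.59 CPM at day 8 in N2B27, E8 and mTeSR, a shift below 2-fold in each. LINC02582, second by mean, depended on the medium. It was 57.9 to 90.2 CPM in naive cells and 75.5 and 86.9 in N2B27 at day 8, but 146 and 138 in E8 and 117 and 142 in mTeSR. LINC00665 was lower in E8 than in N2B27 early and not late, at 46.8 and 47.3 CPM in E8 at day 2 against 71.1 and 61.3 in N2B27, and at 63.4 and 66.3 against 58.6 and 58.5 at day 8. Neither LINC02582 nor LINC00665 reached a log2 fold change of 1 against naive cells at day 8. Between E8 and N2B27 the time course of both differed, with adjusted p = 0.00313 and 0.00105 (edgeR quasi-likelihood F-test). A share of 34.4% of the 31-base words in the transcript ends of LINC00665, and 27.8% of those of LINC01641, also occurs in transcripts of other genes, so that reads could be split between copies.

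Against naive cells, 131 members passed the filter on low counts, and the 7 that did not had means of at most 1.31 CPM. A gene was called when its adjusted p (edgeR quasi-likelihood F-test, Benjamini-Hochberg over 16674 genes) was under 0.05 and it differed by more than 1 on the log2 scale in either direction. In N2B27 the number of members called was 28 at day 2 (21.4% of 131, beside 16.2% of all genes tested), 21 at day 3 (16% beside 15.6%), 35 at day 4 (26.7% beside 18.4%), 40 at day 6 (30.5% beside 23.1%) and 48 at day 8 (36.6% beside 23.9%). In E8 it was 40 at day 2 (30.5% beside 24.6%), 34 at day 3 (26.0% beside 17.8%), 35 at day 4 (26.7% beside 20.8%), 43 at day 6 (32.8% beside 23.3%) and 50 at day 8 (38.2% beside 27.5%). In mTeSR 33 were called at day 4 (25.2% beside 19.8%), 47 at day 6 (35.9% beside 22.5%) and 48 at day 8 (36.6% beside 25.1%), and in Ex2 30 with XAV (22.9% beside 17.0%) and 21 with FAX (16% beside 17.1%). Against naive cells of Ex2 alone, FAX gave 36 members (27.5% beside 21% of all genes). At E8 day 2, 21 of 40 were higher, but 19 of 46 when libraries were scaled by their totals, a scaling under which the log2 fold change of the median gene went from -0.00415 to -0.149. The count fell to 18 for N2B27 at day 2 without replicate 2 and to 31 for mTeSR at day 6 without replicate 2.

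The split of the day 8 calls by direction was near that of all genes, with 70.8%, 68% and 70.8% of the members' calls higher in N2B27, E8 and mTeSR, beside 70.6%, 66.3% and 67.4% of all calls. In N2B27, 34 members were higher and 14 lower, beside 16.9% and 7.03% of all genes. In E8 the counts were 34 and 16, beside 18.2% and 9.24%, and in mTeSR 34 and 14, beside 16.9% and 8.2%. The median log2 fold change of the members was 0.238, 0.344 and 0.312, and that of all genes -0.031, 0.002 and -0.023. With the background restricted to genes whose mean reached 1 CPM, as the rule requires of members, the shares were 23.4%, 27% and 24.8% of genes. Without the fold threshold, 67, 65 and 61 of 131 members had an unadjusted p under 0.05 (edgeR) in N2B27, E8 and mTeSR at day 8. All genes gave 51.3%, 55.2% and 51.6%, so that members exceeded all genes there only with the fold threshold. Level was not matched between members and all genes. In at least 1 of the 15 comparisons with naive cells 102 members (77.9%) were called, beside 55.3% of all genes. All 15 comparisons share the naive libraries, so that a call in several media is not an independent repeat. Another 45 named long noncoding RNAs without a LINC number served for comparison. Of the 40 tested, 5 were higher and 2 lower in N2B27 at day 8, 7 and 1 in E8 and 9 and 0 in mTeSR.

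**Figure D1:**
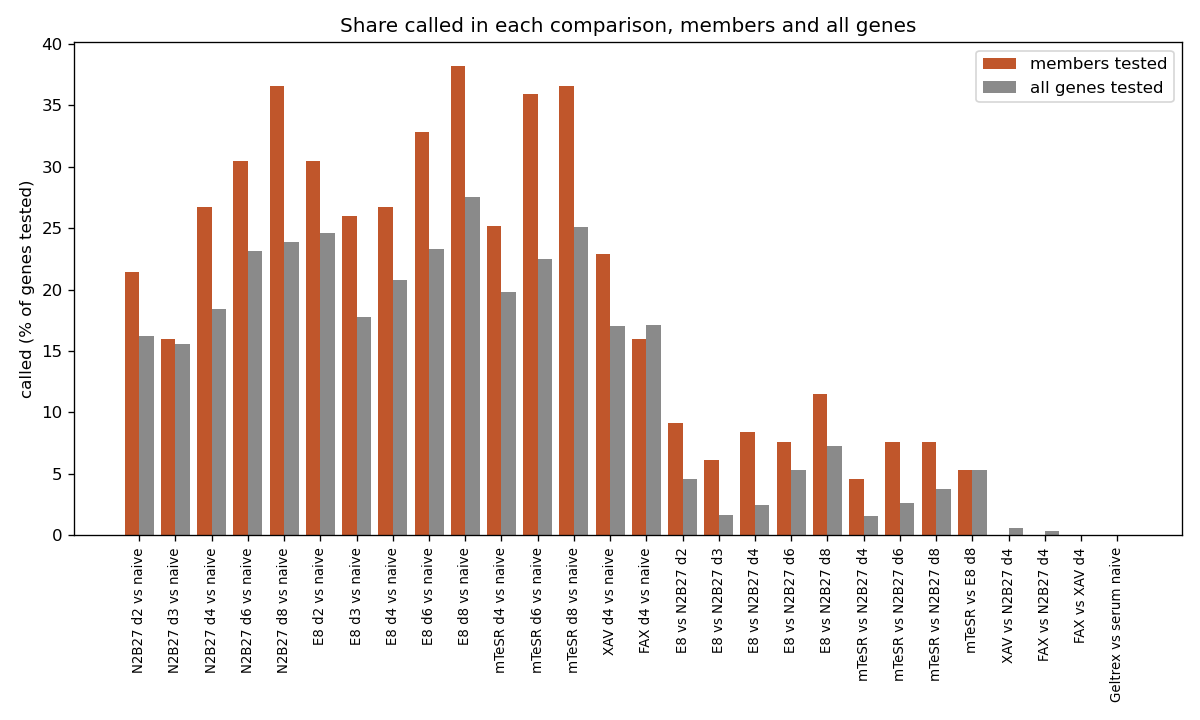
Share of genes called (%, vertical axis) in each of the 15 comparisons with naive cells and the 13 comparisons between groups (horizontal axis), for the 131 members tested and for all 16674 genes tested. The members' bar is above that of all genes in each comparison with naive cells except FAX at day 4 (16% beside 17.1%, and 27.5% beside 21% against naive cells of Ex2 alone), and both are small between media.

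**Figure D2:**
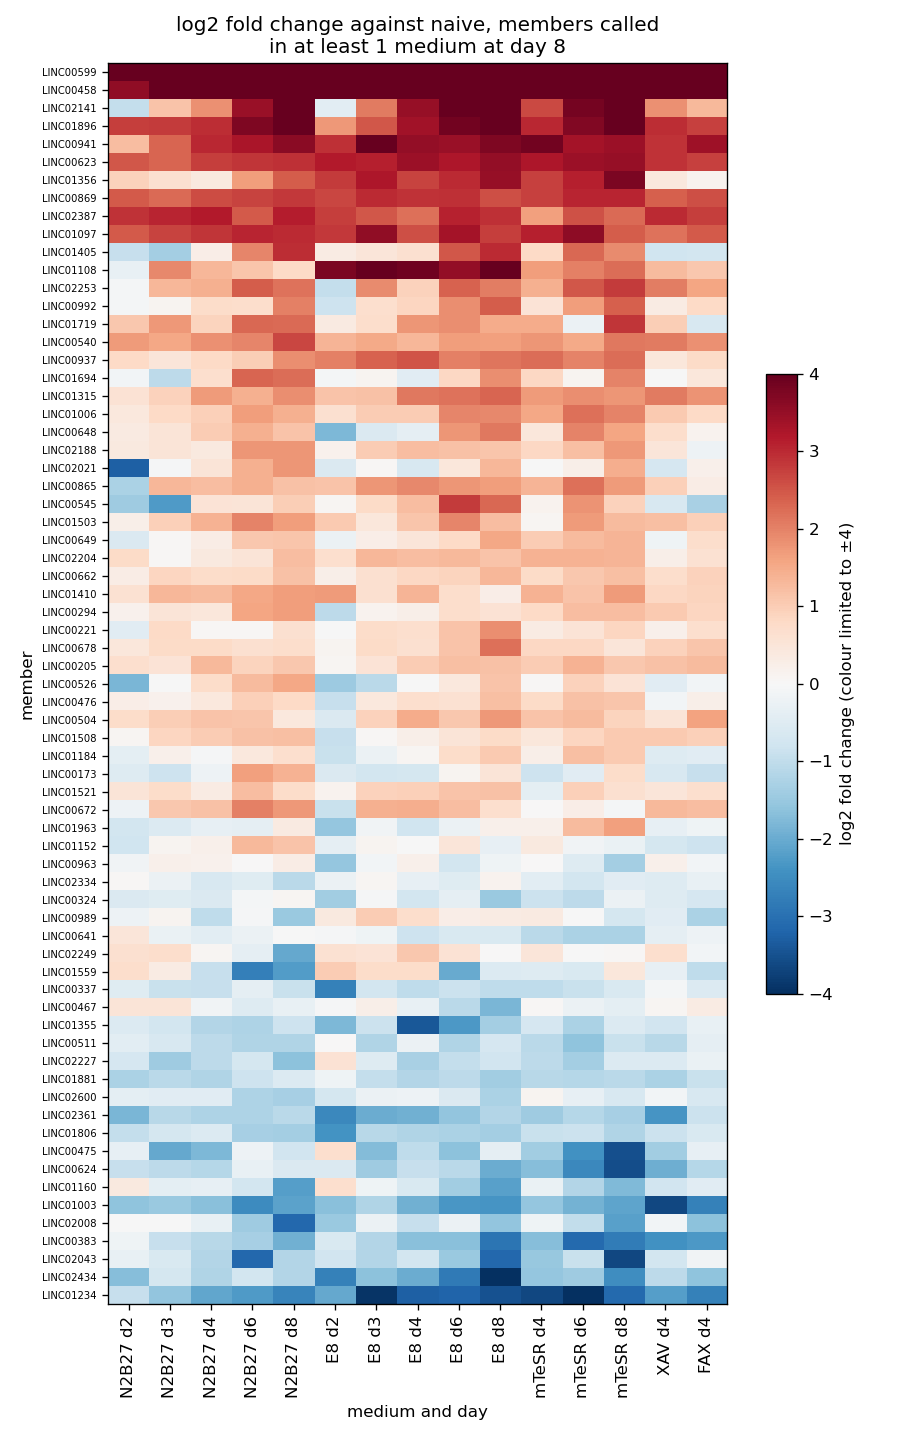
log2 fold change against naive cells (colour, limited to ±4) for the 69 members called in at least 1 medium at day 8 (rows, ordered by their mean over the 3 media at day 8) in each medium and day (columns). Members at the top, such as LINC00599 and LINC00458, were higher from day 2 on, and those at the bottom, such as LINC01234 and LINC00383, were lower.

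Among the rising members, LINC00458 changed most in absolute level. This multi-exon transcript (chromosome 13, 53950255 to 54270397, minus strand), known from human pluripotent stem cells, lies in a gene desert 1241584 bases from the nearest protein-coding start (OLFM4). It was 0.359 to 0.988 CPM in the 6 naive libraries. In N2B27 it was 6.64 and 7.44 CPM at day 2 and 39.0 and 36.8 at day 8. In E8 it was 21.3 and 15.1 CPM at day 2, 65.9 and 60.3 at day 4 and 89.9 and 106 at day 8, and in mTeSR 49.9 and 48.4 at day 4 and 109.6 and 104 at day 8. No library after exit overlapped the naive range, and E8 and mTeSR lay above N2B27 on each day compared. Against naive cells the log2 fold change of LINC00458 at day 8 was 5.88 ± 0.221 (SE, adjusted p = 2.33e-21) in N2B27, 7.32 ± 0.198 (2.85e-25) in E8 and 7.43 ± 0.199 (1.98e-25) in mTeSR (edgeR). E8 exceeded N2B27 by 2.80-fold at day 2, 4.20-fold at day 4 and 2.71-fold at day 8 (adjusted p = 3.96e-05, 1.15e-10 and 8.68e-09).

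LINC01356 (chromosome 1, 112820170 to 112850643, minus strand) rose early in E8 and mTeSR and late in N2B27. Its naive libraries held 1.97 to 5.47 CPM, and N2B27 libraries 5.23 and 8.11 at day 2, 3.56 and 3.92 at day 4 and 18.7 and 21.7 at day 8. In E8 it stood at 23.9 and 21.6 CPM at day 2, 26.3 and 20.2 at day 4 and 35.1 and 45.8 at day 8, and in mTeSR at 28.8 and 19.1 at day 4 and 45.7 and 53.8 at day 8. At day 4 the N2B27 libraries of Ex1 thus lay within the naive range and those of E8 and mTeSR above it. E8 exceeded N2B27 by 6.40-fold at day 4 (log2 fold change 2.68 ± 0.331 SE, adjusted p = 1.83e-06) and by 2.09-fold at day 8 (1.06 ± 0.255, 0.00317), and the course over days differed between them (adjusted p = 0.0181, edgeR). In Ex2, N2B27, XAV and FAX libraries of LINC01356 ran from 3.03 to 6.74 CPM, below each E8 library of Ex1, although experiment and basal medium differ between them. In the annotation, 40% of the 31-base words of its transcript ends are shared with other genes. LINC00937 (chromosome 12, 8295986 to 8396803), chosen after its values were seen, had a like pattern. It was 3.02 to 6.58 CPM in naive cells, 8.73 and 9.53 in N2B27 at day 4 and 29.6 and 30.0 in E8, but 19.8 and 19.9 in N2B27 and 20.0 and 26.4 in E8 at day 8. Its E8 to N2B27 ratio was 3.39-fold at day 4 (adjusted p = 5.67e-06), and its course differed with adjusted p = 0.00576.

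LINC00599 hosts the brain microRNA miR-124 and is now named MIR124-1HG. It had 1 count over the naive libraries, in serum replicate 1. It reached 5.05 and 5.58 CPM in N2B27 and 17.5 and 19.4 in E8 at day 3, and 7.53 and 7.67 in N2B27, 12.9 and 22.2 in E8 and 17.4 and 22.9 in mTeSR at day 8. Against that single naive count the ratio of LINC00599 was 196 in N2B27 at day 8, with a 95% counting interval of 34.0 to 7835, and E8 exceeded N2B27 by 2.39-fold at day 8 (adjusted p = 0.00196). The 3 neural markers summed to 0.359 to 1.37 CPM in naive cells and to 2.24 to 3.07 CPM at day 8 over the 3 media, but in N2B27 to 7.45 to 9.37 CPM at day 3 and 6.72 to 13.4 at day 4 over both experiments, and at day 4 to 6.77 to 8.27 with XAV and 13.5 to 13.9 in FAX. In E8 they were at 3.23 to 4.48 CPM at day 3. Their part in the level of LINC00599 was not tested. Of these markers, PAX6, SOX1 and LHX2, 1 passed the filter, and it rose in each medium. LINC02141 (chromosome 16, 59855353 to 60053973) appeared later. It was 0 to 0.658 CPM in naive cells, at most 0.318 at day 2, and 4.56 and 5.18 in N2B27, 8.04 and 5.66 in E8 and 5.98 and 5.94 in mTeSR at day 8, with log2 fold changes of 4.15 ± 0.518 (SE), 4.71 ± 0.490 and 4.50 ± 0.520 (adjusted p = 3.91e-08, 7.08e-10 and 7.97e-09).

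LINC01896 (chromosome 18, 78976555 to 78979074, minus strand) starts 744 bases from SALL3, a zinc finger gene of the Spalt family, and both rose. LINC01896 was 0 in all 4 naive libraries on Geltrex and 0.683 and 0.658 CPM on serum, and 3.88 and 5.18 CPM in N2B27, 6.73 and 4.48 in E8 and 5.17 and 4.53 in mTeSR at day 8. The log2 fold changes of LINC01896 at day 8 were 4.06 ± 0.555 (SE), 4.44 ± 0.535 and 4.21 ± 0.573, which rest on 6 naive counts. They were 4.68, 5.07 and 4.84 without naive serum replicate 1, and 4.974, 5.357 and 5.125 against Ex1 naive cells alone. Those of SALL3 were 2.38 ± 0.187, 3.0 ± 0.180 and 3.1 ± 0.183, as it went from 6.52 CPM to 37.5, 54.9 and 59.3 CPM. LINC00941 (chromosome 12) was 0 to 1.10 CPM in naive cells, 3.61 and 2.39 in N2B27 and 8.30 and 10.4 in E8 at day 3, and 6.16 to 9.43 CPM at day 8 in N2B27 and E8. E8 exceeded N2B27 3.18-fold at day 3 (adjusted p = 0.00126) and its course differed (adjusted p = 0.0252). All 31-base words of the annotated end of LINC00941 also occur in transcripts of another annotated gene, so that its counts cannot be assigned to it alone. LINC00205, the neighbour of POFUT2, was 9.55 to 25.4 CPM in naive cells and 42.9 to 47.7 CPM at day 8 in N2B27 and E8. It rose 2.12-fold in N2B27, 2.25-fold in E8 and 2.10-fold in mTeSR (adjusted p = 5.13e-06, 1.17e-06 and 1.13e-05), but against Ex1 naive cells alone the folds were 1.82, 1.94 and 1.80, under the threshold of a call (adjusted p = 1.39e-06, 2.14e-07 and 3.87e-06). The log2 fold change of POFUT2 was 0.50 ± 0.203 (SE), 0.87 ± 0.197 and 0.63 ± 0.209, below the call.

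LINC01405 (chromosome 12, 110934590 to 110959093) was a late member in all media, with high spread. Its level was 1.37 to 3.84 CPM in naive cells, 0.805 and 1.58 in N2B27 at day 2, 9.87 and 8.63 at day 6 and 14.4 and 22.8 at day 8. In E8 it was 16 and 9.49 CPM at day 6 and 26.7 and 9.67 at day 8, and in mTeSR 8.43 and 8.77 at day 8. Its log2 fold changes at day 8 were 2.94 ± 0.320 (SE), 3.0 ± 0.319 and 1.89 ± 0.374 (adjusted p = 2.18e-09, 1.22e-09 and 8.23e-05). LINC00173 was highest in N2B27 at day 6, at 10.7 and 10.9 CPM, against 4.31 and 2.71 in E8 and 2.48 and 2.42 in mTeSR, which were lower by 2.95-fold and 4.31-fold (adjusted p = 0.0017 and 0.00025). In naive cells LINC00173 was 1.10 to 2.51 CPM in Ex1 and 7.24 and 6.31 in Ex2. Against Ex1 naive cells alone it was called higher at day 8 in all 3 media, with log2 fold changes of 2.19 ± 0.308 (SE) in N2B27, 1.32 ± 0.341 in E8 and 1.54 ± 0.350 in mTeSR, and against all naive libraries in N2B27 alone (1.38 ± 0.375).

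**Figure D3:**
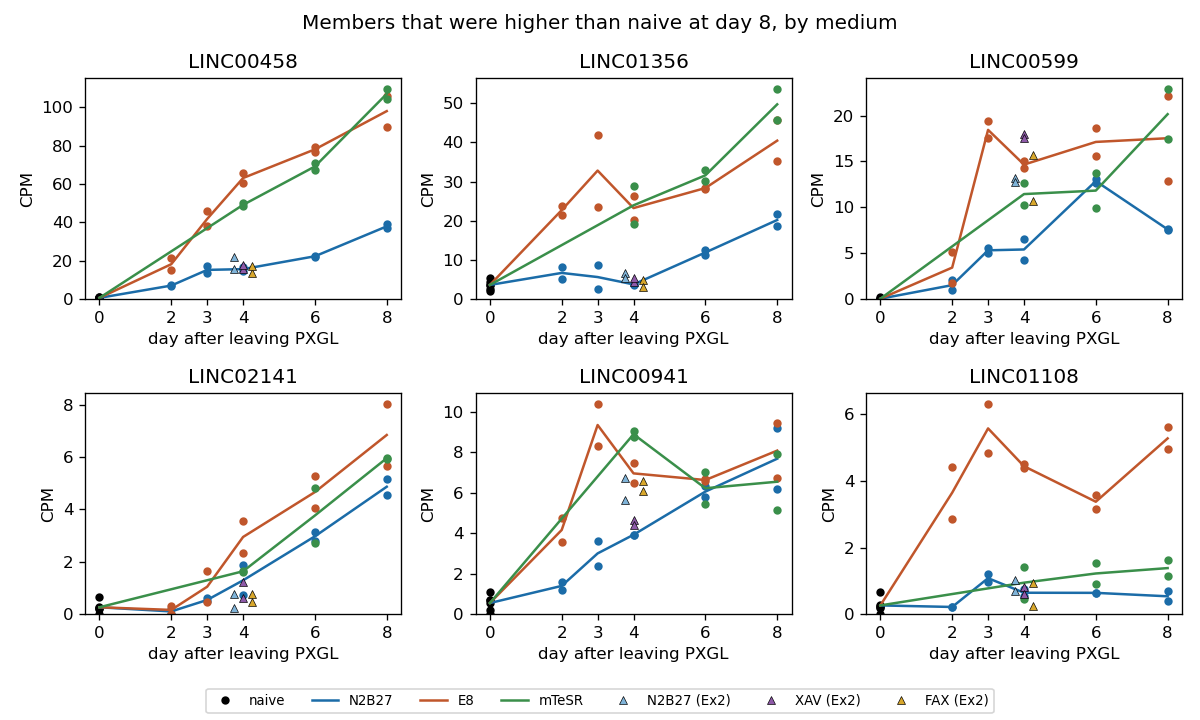
CPM (vertical axis) against days after leaving PXGL (horizontal axis) for 6 members higher at day 8 in at least 1 medium. Points are libraries, lines join means from the naive mean of 6 libraries, and triangles are Ex2 libraries at day 4. LINC00458 and LINC01356 lie higher in E8 and mTeSR than in N2B27, and LINC01108 passes 2 CPM in E8 libraries only.

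LINC01108 was highest in E8. This transcript of pluripotent stem cells (chromosome 6, 14280127 to 14285454, minus strand) was 0 to 0.658 CPM in naive cells and 0.201 to 1.20 CPM in Ex1 libraries of N2B27. In E8 it was 2.86 and 4.43 CPM at day 2, 4.84 and 6.32 at day 3, 4.38 and 4.51 at day 4, 3.59 and 3.16 at day 6 and 5.61 and 4.95 at day 8. In mTeSR it was 1.43 and 0.461 CPM at day 4 and 1.63 and 1.13 at day 8, and in the 6 libraries of N2B27, XAV and FAX in Ex2 0.253 to 1.04. All 10 E8 libraries were thus above all other 28. Against naive cells at day 8 it was called higher in E8 (log2 fold change 4.15 ± 0.431 SE, adjusted p = 7.09e-10) and in mTeSR (2.23 ± 0.590, 0.00356), and the value in N2B27 was 0.81 ± 0.682 (0.435). E8 exceeded N2B27 by a log2 fold change of 3.34 ± 0.532 (SE, adjusted p = 2.65e-05) and mTeSR was 3.79-fold lower than E8 (adjusted p = 0.00601) at day 8. The call between mTeSR and E8 was lost with DESeq2, without E8 day 8 replicate 1 and without mTeSR day 8 replicate 2. The log2 fold changes were then -1.95, -1.823 and -1.685, beside -1.922. At day 2 the N2B27 libraries of LINC01108 held 2 counts, and the ratio was 17.3 with a 95% counting interval of 4.29 to 151.

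Among the members that were lower, LINC02434 (chromosome 4, 188159705 to 188161157, plus strand, 20264 bases from the start of TRIML1) differed between each pair of media at day 8. It was 24.8, 33.3, 37.3 and 39.1 CPM in Ex1 naive libraries, but 124 and 92.0 in those of Ex2. In N2B27 it was 20.3 and 14.2 CPM at day 2, 37.3 and 35.4 at day 6 and 29.2 and 25.3 at day 8, in E8 7.95 and 7.98 at day 2 and 1.31 and 2.36 at day 8, and in mTeSR 11.4 and 9.34 at day 8. N2B27 libraries at day 8 thus overlapped naive libraries of the same experiment, while E8 and mTeSR libraries lay below them. The log2 fold change of LINC02434 against naive cells at day 8 was -1.16 ± 0.374 (SE, adjusted p = 0.0111) in N2B27, but -0.36 ± 0.165 (adjusted p = 0.0689, no call) against Ex1 naive cells alone. That of E8 was -5.00 ± 0.580 (SE, adjusted p = 7.29e-09), and -4.21 against Ex1 naive cells alone, and that of mTeSR -2.49 ± 0.447 (2.20e-05), and -1.69 against Ex1 naive cells. E8 was lower than N2B27 by 2.08-fold at day 4, 4.26-fold at day 6 and 14.4-fold at day 8 (adjusted p = 0.000908, 6.56e-08 and 4.00e-11), and the course differed with adjusted p = 1.19e-05.

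LINC01234 (chromosome 12, 113583886 to 113773726, minus strand) was 9.57 to 14.8 CPM in the 6 naive libraries and lower in every later one. It was 6.64 and 5.64 CPM in N2B27 and 3.82 and 1.48 in E8 at day 2, 3.36 and 4.59 in N2B27 and 0.692 and 0.815 in E8 at day 3, and 2.05 and 1.92 in N2B27, 1.12 and 0.943 in E8 and 1.36 and 1.42 in mTeSR at day 8. E8 was below N2B27 at day 3 by 5.09-fold (adjusted p = 0.00241). LINC01234 at day 8 had log2 fold changes of -2.66 ± 0.348 (SE), -3.50 ± 0.392 and -3.10 ± 0.395 against naive cells (adjusted p = 1.01e-07, 3.56e-09 and 5.62e-08 by edgeR).

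LINC01003 (chromosome 7, 152463786 to 152465549), annotated with a single exon, 27142 bases from the start of KMT2C (a histone H3 lysine 4 methyltransferase), was 5.6 to 7.53 CPM in naive cells and 0.398 to 3.46 CPM in all 32 others. It was called lower in each of the 15 comparisons with naive cells, which share the naive libraries. At day 8 its log2 fold changes were -2.14 ± 0.333 (SE), -2.35 ± 0.348 and -2.10 ± 0.356 in N2B27, E8 and mTeSR (-2.86 in N2B27 without N2B27 day 8 replicate 2), beside -1.51 ± 0.167, -1.82 ± 0.171 and -1.23 ± 0.165 for KMT2C, which was called as well. LINC01160 (chromosome 1, 111599655 to 111608723) kept its level at first and fell late. It was 10.7 to 16.9 CPM in naive cells, 13.5 and 19.8 in N2B27 and 20.0 and 17.1 in E8 at day 2, 7.30 and 8.63 in N2B27 at day 6, and 1.83 and 3.83 in N2B27, 2.62 and 3.07 in E8 and 2.72 and 4.81 in mTeSR at day 8. Its falls at day 8 were 4.64-fold, 4.52-fold and 3.44-fold (adjusted p = 3.21e-08, 4.59e-08 and 2.30e-06), and the log2 value in N2B27 went from -2.21 to -2.85 without N2B27 day 8 replicate 2. LINC00383 was 2.63 to 9.11 CPM in naive cells and 0.472 to 1.73 CPM at day 8 over the 3 media, with log2 fold changes of -1.93 ± 0.509 (SE), -2.93 ± 0.594 and -2.79 ± 0.626, and the call in N2B27 was lost without N2B27 day 8 replicate 1.

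LINC00624 (chromosome 1, 147258885 to 147517875) and LINC00467 (chromosome 1, 211382736 to 211435570) differed between media at day 8. LINC00624 was 10.2 to 23.1 CPM in naive cells, 12.3 and 10.7 in N2B27, 4.49 and 3.77 in E8 and 1.09 and 1.70 in mTeSR at day 8, so that the media did not overlap. mTeSR was below N2B27 by 7.82-fold (log2 fold change -2.97 ± 0.341 SE, adjusted p = 3.91e-07) and E8 below N2B27 by 2.62-fold (0.000212). The naive to mTeSR fall was 11.7-fold (adjusted p = 2.08e-09), and the fall in N2B27 was not called (log2 fold change -0.58, adjusted p = 0.0561). BCL9, a WNT pathway coactivator whose start lies 23626 bases from LINC00624, changed by log2 -1.25 ± 0.255 in E8 and -0.51 ± 0.243 in mTeSR. LINC00467 was 30.0 to 64.2 CPM in naive cells, 45.6 and 40.8 in N2B27, 47.3 and 31.7 in mTeSR and 13.3 and 15.6 in E8 at day 8. Against naive cells it was called lower in E8 alone (log2 fold change -1.83), with -0.31 in N2B27 and -0.377 in mTeSR. E8 was lower than N2B27 by 2.87-fold (adjusted p = 1.40e-07) and mTeSR higher than E8 by 2.74-fold (1.08e-06). The N2B27 libraries of LINC00467 at day 2 were 81.1 and 62.4 CPM, at the top of the naive range or above it. LINC00324 was lower in E8 (1.87 and 2.36 CPM) than in N2B27 (7.07 and 6.14) at day 8, by 2.97-fold (adjusted p = 0.012), a call lost without N2B27 day 8 replicate 1 or E8 day 8 replicate 1.

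**Figure D4:**
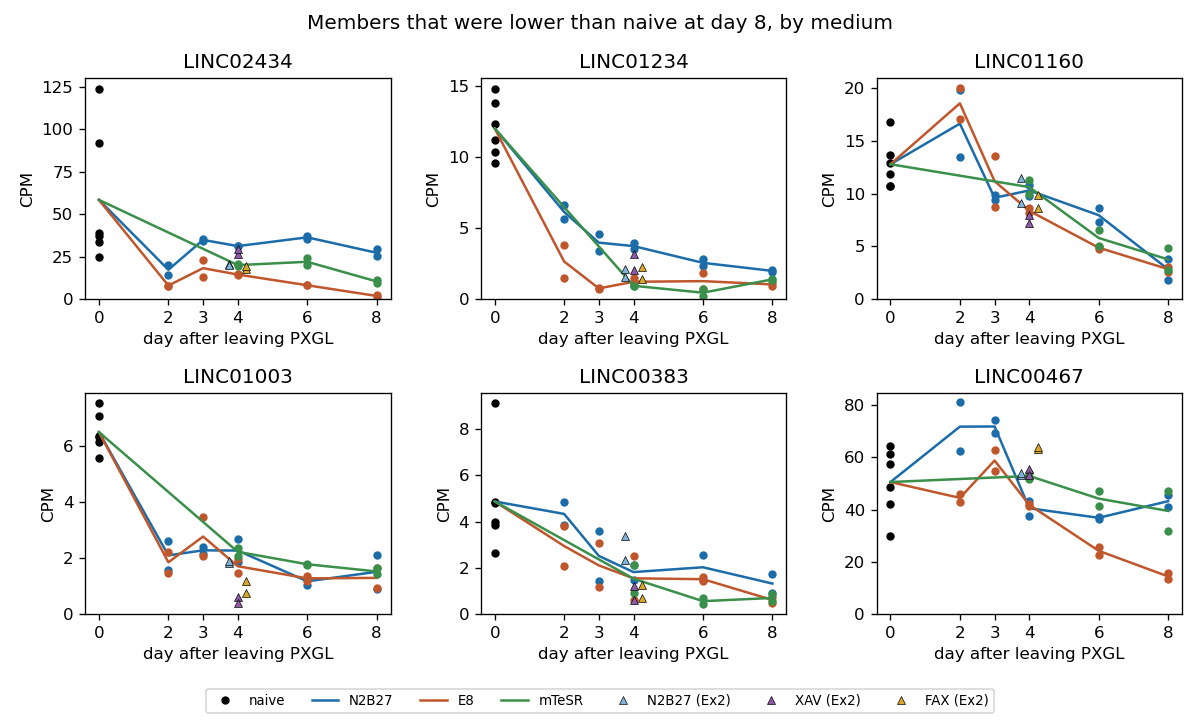
CPM (vertical axis) against days after leaving PXGL (horizontal axis) for 6 members lower at day 8 in at least 1 medium. Points are libraries, lines join means from the naive mean of 6 libraries, and triangles are Ex2 libraries at day 4. LINC02434 and LINC00467 drop furthest in E8, and the 2 naive libraries of LINC02434 at 92.0 and 124 CPM are those of Ex2.

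Between media at the same day, fewer members were called. E8 differed from N2B27 for 12 members at day 2 (9.16% of 131, beside 4.55% of all genes), 8 at day 3 (6.11% beside 1.68%), 11 at day 4 (8.4% beside 2.49%), 10 at day 6 (7.63% beside 5.28%) and 15 at day 8 (11.5% beside 7.29%). For mTeSR against N2B27 the counts were 6 at day 4 (4.58% beside 1.58%), 10 at day 6 (7.63% beside 2.62%) and 10 at day 8 (7.63% beside 3.8%), and mTeSR against E8 at day 8 gave 7 (5.34% beside 5.31%). Of the 12 E8 calls at day 2, 8 were higher, and 7 of 14 with libraries scaled by their totals. A course over days 2 to 8 that differed between E8 and N2B27 was found for 8 members (6.11%), beside 11.0% of all genes: LINC02434, LINC00467, LINC00665, LINC02582, LINC00624, LINC00937, LINC01356 and LINC00941. These counts depended on the fit and on single libraries. With the compared libraries fitted alone, E8 against N2B27 gave 4 members at day 2, 0 at day 3 and 9 at day 8, and mTeSR against E8 gave 4. DESeq2 gave 7, 5, 6 and 6 at days 2, 3, 4 and 6, 4 for mTeSR against E8 and 5 for the course. Without E8 day 8 replicate 1 they were 9 for E8 against N2B27 at day 8 and 2 for mTeSR against E8, and without N2B27 day 8 replicate 1 the first was 7.

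Other members differed between pairs of media at day 8. LINC01963 (chromosome 2) was 10.3 and 9.05 CPM in mTeSR, 4.79 and 3.45 in N2B27, 3.74 and 3.30 in E8 and 1.32 to 4.66 in naive cells, and mTeSR exceeded E8 by 2.71-fold (adjusted p = 0.00679). LINC00678 was 3.93 and 3.54 CPM in E8, 0.912 and 1.73 in N2B27 and 1.09 and 1.13 in mTeSR, but its E8 against N2B27 call (adjusted p = 0.0252) was lost with DESeq2 and with no filter on low counts. LINC00672, now annotated as the protein-coding LASP1NB, was 6.62 and 4.79 CPM in N2B27 and 1.36 and 1.70 in mTeSR, 3.52-fold apart (adjusted p = 0.00773). LINC00989 was 3.93 and 5.19 CPM in E8 and 0.912 and 1.73 in N2B27, 3.47-fold apart (adjusted p = 0.00922). The calls of LINC01963, LINC00672 and LINC00989 were also lost when 1 of the libraries compared was left out. The log2 fold changes were then 1.333 and 1.54 for LINC01963 (1.439 with all libraries), -1.557 to -1.972 for LINC00672 (-1.816) and 1.459 and 1.595 for LINC00989 (1.793).

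Some members had higher means at day 2 of N2B27 than in naive cells and at day 8. Days 2 and 8 were not compared by a test. At day 8 of N2B27, LINC01550, LINC01089 and LINC01004 averaged 2.30, 3.42 and 1.89 CPM, against 2.50, 2.99 and 0.841 in naive cells. In N2B27, LINC01320 was 9.26 and 19.4 CPM at day 2, against 3.29 to 10.9 in naive cells and 3.65 and 6.90 at day 8. LINC00461, a host gene of miR-9, was 8.05 and 7.89 CPM at day 2, above all naive libraries (3.09 to 4.94), and 3.65 and 2.49 at day 8. LINC01089, whose start is 103 bases from that of the histone methyltransferase gene SETD1B, was 6.44 and 5.64 CPM at day 2, also above all naive libraries (1.53 to 4.12). The log2 fold changes at N2B27 day 2 were 1.38 ± 0.321 (SE) for LINC01320, 1.05 ± 0.262 for LINC00461, 1.05 ± 0.352 for LINC01089, 1.29 ± 0.405 for LINC01550 and 1.87 ± 0.541 for LINC01004 (adjusted p from 0.00106 to 0.02). The calls of LINC01320, LINC01550, LINC01089 and LINC01004 were lost without N2B27 day 2 replicate 2 (log2 fold changes 0.72, 0.722, 1.107 and 1.419). That of LINC01089 was also lost without N2B27 day 2 replicate 1, without naive serum replicate 2, without naive Geltrex replicate 1 of Ex1 and with naive cells on Geltrex only (log2 fold change 0.988, 0.905, 0.995 and 0.955). That of LINC00461 was lost without naive Geltrex replicate 1 of Ex1 (0.996). In E8 at day 2 the same members were 13.0 and 13.3 CPM (LINC01320), 8.59 and 10.6 (LINC00461), 9.86 and 5.91 (LINC01089), 6.68 and 6.20 (LINC01550) and 0.955 and 0.295 (LINC01004), of which LINC01004 alone was not called higher than naive. LINC02227 stood at 49.0 and 54.6 CPM in E8 and 16.7 and 30.6 in N2B27 at day 2, but its libraries also differed within groups, at 38.9 and 13.9 CPM in mTeSR at day 8. Its course was not called different between E8 and N2B27 (adjusted p = 0.239, edgeR quasi-likelihood F-test). LINC00685, a pseudoautosomal gene with several annotated positions, dipped at day 2, to 13.9 and 10.6 CPM in N2B27 and 11.4 and 8.56 in E8, from 29.6 to 40.8 CPM in naive cells, and was 31.3 and 36.6 CPM on average at day 8 in N2B27 and E8.

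**Figure D5:**
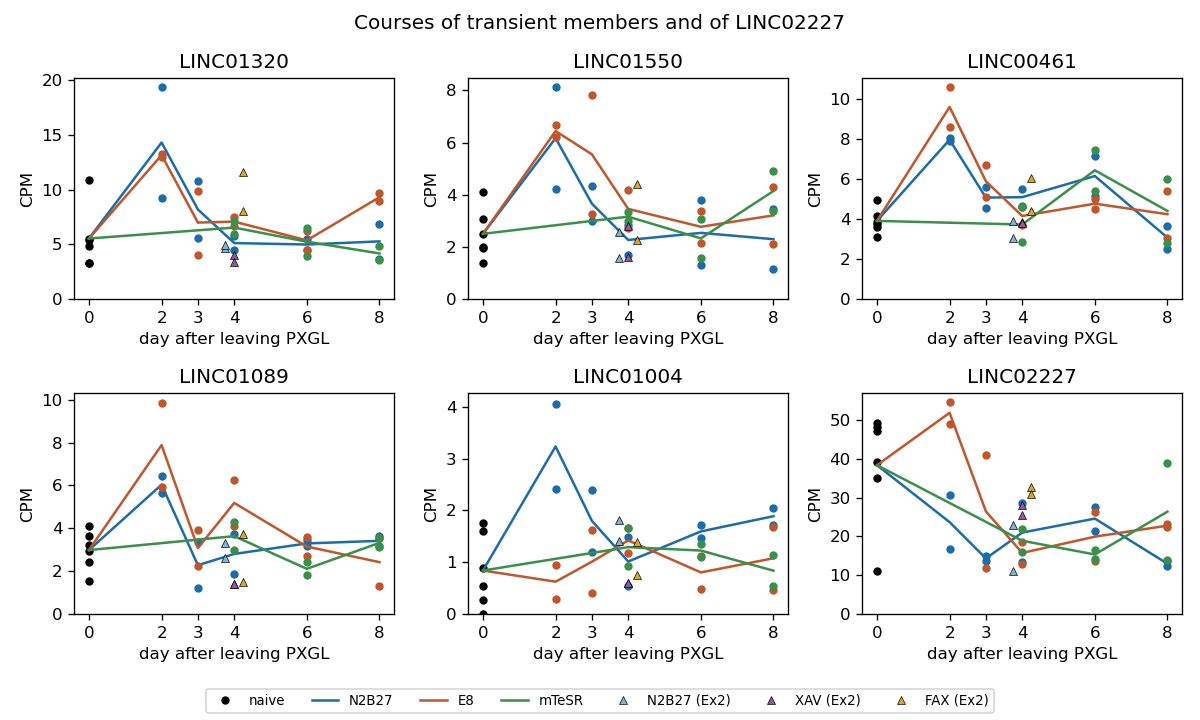
CPM (vertical axis) against days after leaving PXGL (horizontal axis) for 5 members higher than naive in N2B27 at day 2 and for LINC02227. Points are libraries, lines join means from the naive mean of 6 libraries, and triangles are Ex2 libraries at day 4. LINC01320 and LINC00461 are highest at day 2 in N2B27 and E8, and replicates of LINC02227 lie far apart in several groups.

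At day 4 of Ex2, no member was called between N2B27 with XAV and N2B27 (0 of 131, beside 0.57% of all genes), between FAX and N2B27 (0, beside 0.336%) or between FAX and XAV (0, beside 0.012%). At an unadjusted p under 0.05, edgeR gave 10, 5 and 9 members, DESeq2 called 0 in each, and edgeR on the compared libraries alone called 2, 1 and 1. Naive cells on Geltrex and on serum coating also had no member called (0, beside 0.048%), with 14 at an unadjusted p under 0.05, 0 by DESeq2 and 1 with a library score as covariate. LINC00337 and LINC00562 were chosen after their values were seen. The smallest adjusted p for XAV was that of LINC00337, at 7.46 and 5.37 CPM with XAV and 1.56 and 3.30 in N2B27 (log2 fold change 1.36 ± 0.381 SE, adjusted p = 0.073). Next were LINC00624, at 4.24 and 4.18 CPM with XAV and 6.48 and 9.18 in N2B27 (log2 fold change -0.91 ± 0.275 SE, adjusted p = 0.114), and LINC01003, at 0.605 and 0.398 with XAV and 1.81 and 1.88 in N2B27 (-1.84 ± 0.565, adjusted p = 0.196). LINC01320 was 8.09 and 11.7 CPM in FAX and 4.03 and 3.38 in XAV (log2 fold change 1.43 ± 0.433, adjusted p = 0.796). For the coating it was that of LINC00562, at 3.97 and 4.66 CPM on Geltrex and 10.5 and 8.99 on serum in Ex1 (log2 fold change -1.12 ± 0.284 SE, adjusted p = 0.0726). LINC01896 was seen on serum only, at 6 counts in 2 libraries against 0 in the 2 Ex1 libraries on Geltrex, which is at least 2.26-fold higher against a floor of 3 counts over the group, and was not called (adjusted p = 0.125). With 2 libraries a group these values do not show that the conditions act alike.

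Position gave a partial view of the members. The 133 with 1 position had a median longest transcript of 2616 bases (213 to 21234) and at most 4 exons at the median. A protein-coding start lay within 50 kb of 60 of them, with a median distance of 63705 bases over all, and 8 were head to head with a protein-coding gene within 5 kb. Exons of 6 members overlapped a protein-coding gene on the same strand and of 10 on the opposite strand. Among 37 members with a tested neighbour within 50 kb, 11 were called in N2B27 at day 8 and the neighbours of 5 of these were too, each in the same direction as its member. Over all 37 the neighbours were called in 27%, 29.7% and 27% in N2B27, E8 and mTeSR, beside 23.9%, 27.5% and 25.1% of all genes. Of the 26 members not called, 5 had a called neighbour. In E8 the counts were 5 of 15 and 6 of 22, and in mTeSR 4 of 14 and 6 of 23, again with the same direction in all pairs in which both were called. Both members of the pair moved for LINC01896 and SALL3 and for LINC01003 and KMT2C, as described. Reads of neighbours on the same strand could in part be counted with the member, which was not tested.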

How the data were processed

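RNA from 38 libraries of Shef6 cells was sequenced from transcript 3′ ends (QuantSeq). Per the labels and the study's methods, the authors processed reads with an nf-core pipeline (FastQC 0.11.9, STAR 2.7.10a, Salmon 1.9.0, hg38) and deposited whole-number counts per gene symbol. The annotation release is not given in the sources used here. Each column was matched to its sample by library name. For the naive libraries of Ex2 that name has d4 where the title and time point have d0, and the latter were used. Total counts were 3038046 to 5612354, so that a level of 1 CPM is a few counts.

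The members and the gene lists were chosen with earlier results of these data known. CPM was computed on library totals. Genes passing filterByExpr (16674, holding 99.6% of counts) were fitted in edgeR 4.0.16 (R 4.3.3) with TMM scaling and the quasi-likelihood F-test, p-values being adjusted by the Benjamini-Hochberg method over all of them. Comparisons with naive cells used 16 levels of medium and day, and those between media, coatings and additives the 19 groups. The course test compared E8 and N2B27 over days 2 to 8 with an interaction term. Scripts were tested on simulated counts. Named members were the most abundant, the largest called changes at day 8 and between media with a mean of at least 3 CPM in 1 group, those transient at day 2, those with the highest tau, and a few fixed names. Others are said to be chosen after their values were seen. DESeq2 1.42.0, other scalings, filters and naive sets, a replicate block, a library score and omission of each library served as alternatives.

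Positions came from GENCODE v44 and promoters from RefSeq. The 31-base words of the last 300 bases of each member's transcripts were looked up in transcripts of other genes. Replicate libraries differed by more than counting error, with a chi-square per degree of freedom of 1.33 to 9.09. Intervals cover counting error only.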

Additional observations from a re-analysis of the deposited data

Results flagged for a closer look

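Among 66 groups of 4 or 6 libraries examined, 6 held a library that stood apart from the rest. These groups pool both experiments and include members at a few counts, so that no chance rate is given. LINC02227 in naive cells was lowest in Ex2 Geltrex replicate 1, at 11.2 CPM, with the others at 35.1 to 49.1 CPM. LINC00599 was detected in naive serum replicate 1 alone, at 0.228 CPM, which is 1 count. In naive cells the same library was the highest for LINC00383 (9.11 CPM) and LINC01320 (10.9 CPM), and Ex1 Geltrex replicate 2 was the highest for LINC00672 (2.69 CPM). LINC01003 at N2B27 day 4 was highest in Ex1 replicate 1, at 2.67 CPM.

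The course over days 2 to 8 differed between E8 and N2B27 for 7 named members in the edgeR interaction test, with adjusted p = 1.19e-05 for LINC02434, 0.000282 for LINC00467, 0.00105 for LINC00665, 0.00313 for LINC02582, 0.00327 for LINC00624, 0.0181 for LINC01356 and 0.0252 for LINC00941. The E8 libraries of LINC02434 lay below those of N2B27 on all 5 days, by 2.08-fold at day 4 and 14.4-fold at day 8, and those of LINC00467 on each day but day 4. LINC01356 and LINC00941 were called higher in E8 than in N2B27 at days 2 and 3.

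The change from naive cells to N2B27 at day 4 differed between the 2 experiments for 7 of the 33 named members in the edgeR interaction test. The share over all genes is not given here, so that this count is no result about the members. Members not among those named also had an adjusted p under 0.05, namely LINC02484 (8.69e-06), LINC00680 (0.00212), LINC02253 (0.0223) and LINC01023 (0.046). Naive LINC02434 was 92.0 and 124 CPM in Ex2 and 24.8 to 39.1 CPM in Ex1, and its log2 change was lower by 2.08 in Ex2 (adjusted p = 2.26e-06). LINC00665 was 42.5 and 55.5 CPM in naive cells of Ex2 and 76.7 to 79.0 CPM in Ex1 (adjusted p = 0.000662). LINC00467 (adjusted p = 0.00326) and LINC00205 (0.00506) also began lower in naive cells of Ex2. For LINC00173, at 7.24 and 6.31 CPM in naive cells of Ex2 and 1.10 to 2.51 CPM in Ex1, adjusted p was 0.0154. LINC00685 had like naive levels and differed at day 4, with 64.3 and 66.8 CPM in Ex2 and 19.6 and 26.5 CPM in Ex1 (adjusted p = 0.0149). LINC01963 had adjusted p = 0.0178. The naive libraries of Ex2 were on Geltrex and carry d4 in their names and d0 in their titles, and naive levels in the comparisons above pool both experiments unless Ex1 is named.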

How the results depend on the processing

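Of the counts of members called, 412 values under alternatives stayed within 1.5 times the value given and 38 did not. For named members, 773 values kept direction and call, 38 lost the call and 0 reversed. FAX at day 4 against naive cells of its own experiment gave 36 members in place of 21. With the compared libraries fitted alone, E8 against N2B27 gave 4 at day 2, 0 at day 3 and 9 at day 8, mTeSR against E8 gave 4, and the comparisons of XAV with N2B27, FAX with N2B27 and FAX with XAV gave 2, 1 and 1. DESeq2 gave 7, 5, 6 and 6 for E8 against N2B27 at days 2, 3, 4 and 6, 4 for mTeSR against E8 and 5 for the course. A library score as covariate gave 1 for Geltrex against serum. The cause was not tested.

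With each library left out in turn, counts ran from 31 to 51 for mTeSR day 6 and 18 to 35 for N2B27 day 2 against naive cells. They ran from 5 to 12, 7 to 13, 6 to 9, 6 to 9 and 7 to 14 for E8 against N2B27 at days 2, 3, 4, 6 and 8, and from 3 to 4, 5 to 7 and 5 to 8 for mTeSR against N2B27 at days 4, 6 and 8. For mTeSR against E8 the range was 2 to 8, lowest without E8 day 8 replicate 1, and for the course 7 to 13, highest without E8 day 3 replicate 2.

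Deviations of same-numbered libraries had a median correlation of 0.0124 over 105 pairs of Ex1 (lowest -0.544 and highest 0.45, with 21 above 0.1). Some pairs of groups thus deviated together or oppositely, without a common sign by number, and the labels tie the numbers to no shared culture. With a replicate block the counts at day 8 were 48 in N2B27, 49 in E8 and 48 in mTeSR, and 16 for E8 against N2B27, and no count moved by over 1.5 times. Members near 1 CPM rest on a few counts, so that a difference there may not be detectable at this depth, and 2 libraries a group limit each comparison between media.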
